A study of Arabidopsis thaliana with 6 samples.

Results

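Rosette leaves of Arabidopsis thaliana given 50 ppm lead were compared with rosette leaves given 25 ppm, each measured on 1 array. Every probe set (the group of short probes that reads a given transcript) entered the comparison except 50 control probe sets, which left 8247 of the 8297 on the array. The deposited signal, a brightness with no unit, was floored at 8 and put on a log2 scale, and 4363 probe sets with a signal of at least 25 on 1 or both arrays were kept. Of these, 360 were at least 2-fold apart between the doses, and they are the transcripts described here. With 1 array per group there was no replicate, so no test, error or p-value could be given, and "higher" and "lower" describe these arrays only.

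The study profiled transcripts linked to uptake, tolerance and defence in plants exposed to lead. It holds 6 arrays: roots and rosette leaves with no added lead, with 25 ppm and with 50 ppm (milligrams per litre of nutrient solution). All plants were of the accession Col-4, were grown in hydroponic culture with 10 h of light at 22 °C and 14 h of dark at 18 °C and 70% humidity, and carry the label growth stage 6. Lead was supplied as lead nitrate in 2 additions a week apart, made between completion of the rosette and the first visible flower bud, and the labels of the control leaves record no lead. The labels do not give how many plants went into each RNA sample. Total RNA was labelled as biotin cRNA and hybridised to the array. In whole leaves, fewer cells of a type and less RNA per cell cannot be told apart.

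Lead has no known use in plants. Much of the lead taken up from solution is held in roots, where pectin carboxyl groups of the cell wall bind it, and inside cells it reacts with thiols such as glutathione, from which phytochelatins are made. Plants under metal stress are also known for altered peroxidases, pathogenesis-related proteins and wall-modifying enzymes, the same families that respond to microbes and wounding.

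The 360 probe sets were 8.25% of those kept. At 50 ppm 195 were at least 2-fold higher (4.47%) and 165 at least 2-fold lower (3.78%). The log2 difference, 50 ppm minus 25 ppm, had a median of 0.04 over all kept probe sets and ran from -4.14 to 4.81. At least 4-fold apart were 65 probe sets, 39 higher and 26 lower, and at least 8-fold apart were 14, of which 8 were higher. Against the control leaf array by the same rule, 6.2% of probe sets were apart at 25 ppm (2.67% higher and 3.54% lower) and 9.22% at 50 ppm (4.98% higher and 4.24% lower). These comparisons share arrays, so the percentages are set side by side only. The Spearman correlation across probe sets was 0.960 between the 25 and 50 ppm leaf arrays, 0.964 between control and 25 ppm and 0.962 between control and 50 ppm.

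**Figure D1:**
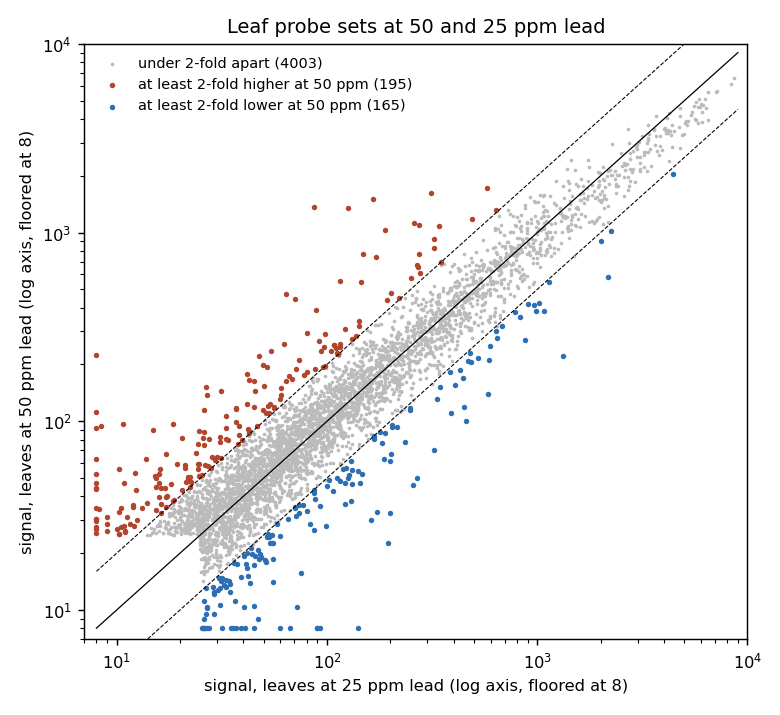
Signal of the 4363 kept probe sets in leaves at 25 ppm (x axis) and 50 ppm lead (y axis), both log axes floored at 8; the solid line marks equal signal and the dashed lines 2-fold. The 195 probe sets above the upper dashed line and the 165 below the lower one are spread over most of the signal range; dim probe sets were kept only where an array reached 25, which leaves out dim points near the solid line.

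The share apart was also counted by the geometric mean of the 2 floored signals. Below a mean of 25 a probe set was kept only through its brighter array, so the filter itself forces differences there and no share is given. From a mean of 25 to 50, 97 of 1130 kept probe sets were apart (8.58%), from 50 to 100 it was 68 of 1038 (6.55%), from 100 to 250 it was 57 of 941 (6.06%), and from 250 to 1000 it was 50 of 731 (6.84%). At a mean of 1000 or more only 4 of 266 were apart (1.5%), all 4 lower at 50 ppm. On 35 of the 360, the dimmer array was under the floor of 8, and for these the fold is given as "at least". Both signals were 25 or more for 200. Near the threshold, 79 probe sets lay between 2 and 2.2-fold and a further 158 lay between 1.8 and under 2-fold. EXPA4 was just inside at 2.00-fold lower, and AT4G29950 just outside at 1.99-fold lower.

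The control level showed on which side of the untreated leaf the doses lay. Of the 195 higher probe sets, the control lay between the doses for 119, below both for 53 and above both for 23. Measured from control, 80 were at least 2-fold away at 50 ppm only, 57 at 25 ppm only, 12 at both and 46 at neither. Of the 165 lower probe sets, the control lay between for 104, above both for 53 and below both for 8. For these, 77 were 2-fold from control at 50 ppm only, 25 at 25 ppm only, 10 at both and 53 at neither. In all, the control was nearer the 25 ppm level for 219 and nearer the 50 ppm level for 141 of the 360.

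**Figure D2:**
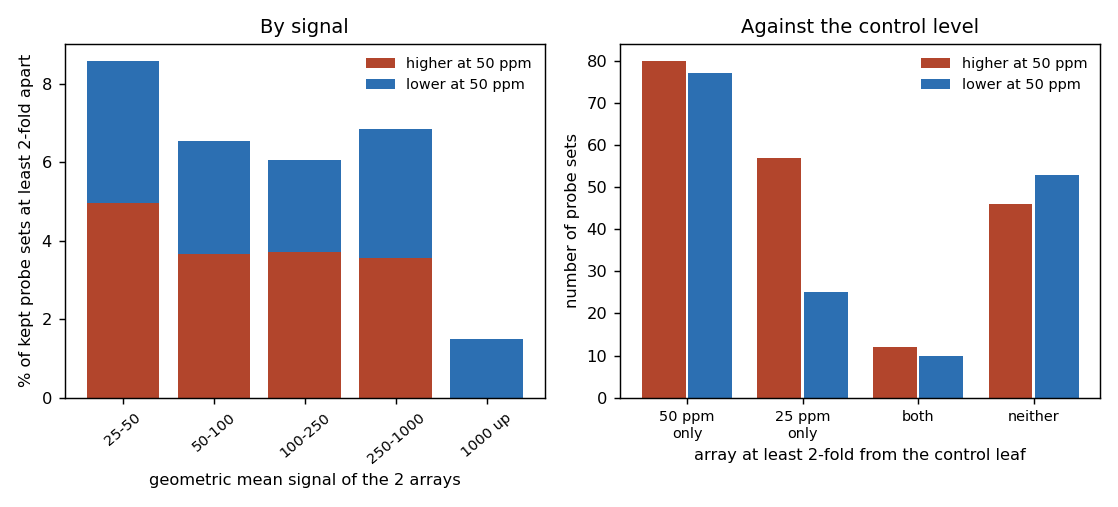
Left, percentage of kept probe sets at least 2-fold apart (y axis) in 5 ranges of geometric mean signal from 25 up (x axis), split by direction; the first range reaches 8.58% and the last 1.5%. Right, number of the 195 higher and 165 lower probe sets (y axis) by which lead array was at least 2-fold from the control leaf (x axis); 25 ppm only holds 57 higher and 25 lower probe sets.

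Names were available for 137 of the 360 probe sets, each matching a single gene, and they stood for 132 genes: 65 probe sets were higher and 72 lower. Of the kept probe sets with such a name 7.47% were apart, and of those without it 8.81%. Signals are given in the order control, 25 ppm and 50 ppm unless stated. The 12 gene families counted below were listed after the values were seen, so their counts describe these arrays and are no separate support.

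Pathogenesis-related proteins, which plants make against microbes and in many stresses, were found in both directions. Over 6 kept chitinase probe sets, 1 was higher and 2 were lower, with a median log2 difference of -0.14. Among 5 of beta-1,3-glucanases 1 was higher and none lower (median 0.09). Of 3 proteinase inhibitor probe sets 2 were lower (median -1.27), as were 1 of 3 of the thaumatin family (median -0.32) and 1 of 2 of the PR-1 family (median -1.09). These medians stand beside 0.04 for all kept probe sets. A separate group, defence hydrolases and inhibitors marked by words in gene names, had 15 kept probe sets, 3 higher and 0 lower (median -0.08). With a signal of at least 25 required on both arrays, the chitinase and proteinase inhibitor counts were the same, while none of 4 glucanase, 2 thaumatin-family and 1 PR-1 probe sets was apart.

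CHI (AT2G43570), a chitinase, which cleaves the chitin of fungal walls, gave 298, 54.3 and 234, 4.32-fold higher at 50 ppm. Control and 50 ppm were close and the 25 ppm array was the low one. For AT2G43620 of the same family the signals were 86.5, 174 and 32.9, 5.28-fold lower at 50 ppm. Here 25 ppm was the highest of the 3 leaf arrays and 50 ppm the lowest. A further member, AT4G01700, read 126, 186 and 63.1, in the same order, and was 2.95-fold lower. The beta-1,3-glucanase AT4G16260, whose family cuts callose and fungal glucan, read 12.8, 5.2 and 91.7, at least 11.5-fold higher at 50 ppm. It was high in roots as well, where it read 577, 613 and 1485. Its family member AT2G05790 read 157, 147 and 219, and the remaining kept ones were within 0.19 log2 of no difference.

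AT2G38870, a proteinase inhibitor of the PR-6 type, which blocks serine proteases of pests and microbes, read 237, 256 and 45.8, 5.59-fold lower at 50 ppm. The control and 25 ppm arrays were alike and 50 ppm stood apart. AT2G43550, a trypsin inhibitor-like peptide, read 94.6, 80.3 and 33.3, 2.41-fold lower. Its near relative AT2G43530 had the opposite sign, with 758, 763 and 1229, under 2-fold. The PR-1-like protein AT4G07820 gave 14.1, 25.4 and 4.8 in its kept probe set, at least 3.17-fold lower. The other AT4G07820 probe sets were under the floor on every leaf and root array, so the reading rests on that probe set alone. The thaumatin-like protein ATLP-1 gave 35.4, 54.6 and 24.8, 2.20-fold lower. THI2.1, an antimicrobial thionin driven by jasmonate, was 2.01-fold higher in one kept probe set (11.3, 16.2 and 32.5) and had the opposite sign in another (25.9, 26.3 and 18.7), so its direction is not settled.

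Peroxidases of class III, secreted enzymes that oxidise phenolics and cross-link the wall, had 10 kept probe sets of 51 on the array. Of the 10, 2 were higher and 1 lower, with a median of -0.07. All 3 of these were kept only through their brighter array, and of the 6 peroxidase probe sets at 25 or more on both arrays none was apart. AT4G37520 read 15.8, 4.7 and 47.2, at least 5.90-fold higher at 50 ppm, and AT3G21770 read 16.0, 10.3 and 32.9, 3.19-fold higher. Both were low in leaves at every dose, and the other probe set of AT3G21770 was under the floor on every leaf array. Their root signals were 434, 442 and 635 for AT4G37520 and 1098, 342 and 1341 for AT3G21770. AT1G68850 read 20.8, 28.6 and 13.3, 2.15-fold lower, and its other probe set was under the floor on every leaf array. PRXR1, also kept, read 2011, 2947 and 2858, and was level between the lead doses.

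Because AT4G16260, AT4G37520 and AT3G21770 are root-abundant, root-rich probe sets were examined as a group, chosen after the values were seen. On all 3 root arrays 36 probe sets read at least 500 while reading under 25 in control leaves. AT4G37520 and AT3G21770 each fell under 500 on a root array and are not in the group. AT4G16260 is in it, and since it prompted the choice, its count there is not a separate finding. In leaves, 24 of the 36 were under the floor in control, 19 at 25 ppm and 24 at 50 ppm. Their summed leaf signal was 254.1, 375.7 and 529.3, their median was 3.85, 6.0 and 4.4, and 13 of the 36 read higher at 50 than at 25 ppm. Only 7 were kept, of which 2 were at least 2-fold higher, AT4G16260 and an unnamed probe set (10.0, 26.5 and 152.5). Among the 7, 1 was lower, the AT4G07820 probe set given above. Without the 2 higher ones the sums over the other 34 were 231.3, 344.0 and 285.1. The choice of the group capped the signal in control leaves only. A control sum below the lead sums is therefore favoured by the choice itself and is not a finding. Root-abundant peroxidases of the group varied in leaves. AT2G37130, at 1820 or more in every root array, read 17.6, 33.7 and 45.0 in leaves. AT3G32980, at 2146 or more in every root array, read 3.4, 3.3 and 3.5. AT5G17820, at 1003 or more in roots, read 1.1, 1.8 and 1.6. AT2G38380 read 7.4, 22.0 and 0.6 in one probe set and 8.4, 9.5 and 3.0 in the other. AT5G64100 read 2.8, 8.4 and 3.3, AT4G30170 read 3.8, 4.5 and 2.5, and AT2G38390 read 3.9, 4.7 and 6.8.

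Pectin and expansin genes were examined for the cell wall. Pectin methylesterases, which strip methyl groups from pectin, and the inhibitors of these enzymes had 13 kept probe sets for 10 genes. None was 2-fold higher, 5 were 2-fold lower, and 10 of 13 had a negative difference (median -0.36). Those 5 came from only 2 genes, and at 25 or more on both arrays 3 of 7 probe sets were lower, all of AT3G47380. AT3G47380, of the methylesterase inhibitor family, was lower in all 3 of its probe sets, by 6.07-fold (237, 198 and 32.7), 5.42-fold (243, 163 and 30.0) and 3.33-fold (189, 122 and 36.6). In each of the 3 the order was control, 25 ppm, 50 ppm from high to low, and 50 ppm stood apart. ATPMEPCRB (AT4G02330), a pectin methylesterase, was 2.79-fold lower in one probe set (114, 42.2 and 15.1) and 2.54-fold lower in the other (157, 48.3 and 19.0), so that each dose was lower than the one before it. AT5G62350, an inhibitor-family member, read 1291, 1987 and 2081 and was level between the doses.

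Expansins loosen the wall during growth without cutting it. All 6 kept expansin probe sets, for 5 genes, had a negative difference, and 3 were 2-fold lower (median -0.69). At 25 or more on both arrays 2 of 4 were. EXPB1 read 128, 128 and 52.1 in one probe set, 2.45-fold lower, and 25.9, 26.4 and 6.6 in the other, at least 3.30-fold lower. EXPA4 read 168.5, 168.0 and 84.0. In both genes control and 25 ppm were level and only 50 ppm was lower. EXPA8, at 589, 615 and 556, differed little between the doses.

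Other wall proteins were split. AT5G59170, a proline-rich extensin-like protein, read 18.8, 66.6 and 7.1, at least 8.32-fold lower at 50 ppm. Another extensin-like gene, AT2G43150, read 660, 576 and 1714, 2.98-fold higher, so these structural proteins stood on opposite sides. AT2G31110, of a family that acetylates wall polysaccharides, read 27.6, 24.4 and 55.5, 2.27-fold higher. AT4G23500, resembling polygalacturonases, which cut pectin, read 13.1, 25.9 and 3.7, at least 3.24-fold lower. GH9B8, of the endoglucanase family that acts on cellulose, read 10.0, 28.9 and 12.5, 2.31-fold lower, with 25 ppm the high array and control level with 50 ppm.

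Proteases of the vacuole and lytic compartments were counted as a family list, which joins different enzyme classes and was made after the values were seen. Of 5 kept probe sets for 4 genes of papain-type proteases and vacuolar processing enzymes, all 5 had a positive difference and 3 were 2-fold higher (median 1.05), and all 5 were at 25 or more on both arrays. GAMMA-VPE, a processing enzyme that matures vacuolar proteins and is known from senescing and stressed tissue, read 235, 273 and 771, 2.82-fold higher at 50 ppm. AT1G02300, cathepsin B-like, read 31.6, 25.9 and 74.4, 2.87-fold higher. AT4G16190, a papain-type protease, read 662, 640 and 1325 in one probe set (2.07-fold higher) and 806, 879 and 1406 in the other (1.60-fold). In each of these probe sets control and 25 ppm were near each other, and the 50 ppm array was the high one.

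Aspartyl proteases were not counted as a family. AT1G03220, a member, read 306, 586 and 139, 4.22-fold lower at 50 ppm, and its chromosomal neighbour AT1G03230 of the same family read 174, 216 and 93.6, 2.31-fold lower. Both were highest at 25 ppm and lowest at 50 ppm.

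**Figure D3:**
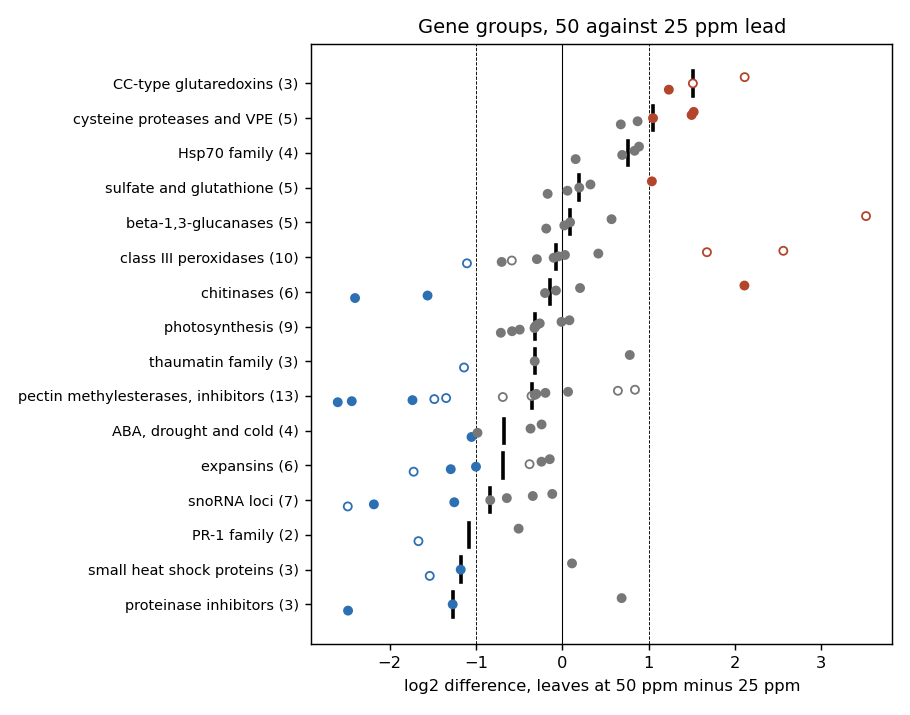
Log2 difference, 50 ppm minus 25 ppm (x axis), of each kept probe set in 16 gene groups (y axis, number of probe sets in brackets); open points were under 25 on an array, black bars are medians and dashed lines mark 2-fold. Glutaredoxins and cysteine proteases lie right of 0 and expansins and snoRNA loci left of 0. Peroxidases, chitinases and pectin methylesterases spread over both sides. The gene families among the groups were listed after the values were seen.

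Glutaredoxins are small enzymes that use glutathione to reduce disulfides, and the CC type of land plants also acts with TGA transcription factors. Of 4 CC-type probe sets on the array 3 were kept and were 2-fold higher at 50 ppm (median 1.51). Of these AT1G03020 and AT2G30540 were kept only through the 50 ppm array, so the count is shaped by the filter, and at 25 or more on both arrays AT2G47880 alone remained. AT1G03020 read 0.7, 2.3 and 34.6, at least 4.33-fold higher, so it was under the floor in control and at 25 ppm. AT2G30540 read 26.2, 23.9 and 68.2, 2.85-fold higher. AT2G47880 read 265, 108 and 254, 2.35-fold higher, and differed from the others in that its control level matched 50 ppm. ROXY1 was not kept and had the opposite sign (6.5, 15.8 and 3.9). In roots AT1G03020 and AT2G47880 were under the floor at every dose.

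Sulfate assimilation supplies the cysteine for glutathione and phytochelatins. Of 5 kept probe sets 1 was 2-fold higher and none lower (median 0.20). APS4, an ATP sulfurylase that activates sulfate, read 86.4, 138 and 283, 2.05-fold higher at 50 ppm and increasing from control through 25 ppm. APS3 of the same family read 224, 405 and 465, and SIR, sulfite reductase, read 156, 190 and 238, in the same order but under 2-fold between the lead doses. Both glutathione reductases, GR1 (201, 147 and 130.5) and GR (106, 102 and 106), were within 0.17 log2 between the doses. MSRB5, a methionine sulfoxide reductase that repairs oxidised proteins, read 22.2, 39.4 and 79.3, 2.01-fold higher. Of antioxidant enzymes, 4 probe sets were kept and none was 2-fold apart (median -0.46); the ascorbate peroxidase TAPX read 291, 344 and 201 in one of its probe sets.

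Few metal transport genes could be read. MTP11, a manganese transporter, read 99.2, 129 and 61.5, 2.10-fold lower, but it does not belong to the metal handling list. Of the 2 kept probe sets of that list 0 were 2-fold higher and 0 lower (median -0.21). The zinc transporter family member ZIP6 read 34.0, 43.9 and 31.6, and the copper chaperone CCS read 468, 96.2 and 100.5, level between the lead doses and far below control in both.

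Growth hormone genes were represented by a small number of probe sets. GH3.3, which conjugates auxin to amino acids, read 65.7, 144 and 47.3, 3.04-fold lower at 50 ppm. IAA20, an Aux/IAA repressor-type protein, read 73.8, 179 and 87.8 in its kept probe set, 2.04-fold lower. The other IAA20 probe sets were under the floor on every leaf and root array, so the IAA20 reading rests on the kept probe set alone. For GH3.3 and the kept IAA20 probe set the 25 ppm array was the high one and control was near 50 ppm. The remaining kept auxin genes had positive differences under 2-fold, WES1 with 98.8, 99.1 and 151 and IAA18 with 84.5, 50.9 and 101. RR16, a response regulator of cytokinin signalling, read 56.9, 42.8 and 13.9, 3.08-fold lower.

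Of 7 kept probe sets whose names mark WRKY transcription factors, 0 were 2-fold higher and 1 lower (median 0.03). Among 15 marked as AP2/ERF factors and 7 as bHLH and bZIP factors, 0 were 2-fold apart. WRKY6, known from senescence and defence, read 110.5, 92.8 and 35.7, 2.60-fold lower. WRKY53, a senescence and salicylic acid regulator, read 175, 58.4 and 39.5, under 2-fold between the doses. Outside these counts, the MYB-like AT1G70000 read 30.2, 6.4 and 29.5, at least 3.69-fold higher, and the bHLH gene AT1G03040 read 35.3, 24.6 and 59.4, 2.41-fold higher. Both thus had their lowest level at 25 ppm. AT1G61360, a receptor-like kinase of the S-locus lectin type, read 48.9, 50.8 and 18.3, 2.78-fold lower.

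Dehydrins and related proteins protect cells when water is short or temperatures fall. LTI30 read 119, 235 and 78.1, 3.01-fold lower at 50 ppm. COR47 read 694, 1135 and 548 in one probe set, 2.07-fold lower, and 867, 1491 and 755 in the other, 1.98-fold lower. KIN2, a cold-induced gene, read 3056, 4451 and 3449 in one probe set and 2970, 3854 and 3264 in the other, under 2-fold. All these probe sets had their highest leaf level at 25 ppm. The abscisic acid, drought and cold list, to which LTI30 does not belong, had 4 kept probe sets for 2 genes. Of these 1 was lower and none higher (median -0.68). A wider group of 12 kept probe sets, marked by words in gene names for the same theme, had 2 lower and 0 higher (median -0.34).

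Heat shock proteins, chaperones that hold or refold other proteins, were counted in 2 families. Of 3 small heat shock probe sets 2 were lower: AT1G54050 (12.7, 26.1 and 9.0, 2.90-fold) and AT1G59860 (106, 87.5 and 38.7, 2.26-fold), of which only the latter was at 25 or more on both arrays. The remaining one, AT2G19310, read 119, 149 and 161, with a small positive difference. The 4 Hsp70 family probe sets all had positive differences under 2-fold (median 0.77). For AT3G09440 the signals were 1076, 650 and 1051 in one probe set and 437, 160 and 296 in the other, with 25 ppm the low array in both.

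Lipid genes were not counted as a list, and the following are single examples. AT1G54010, a GDSL-type lipase associated with the myrosinase system that releases mustard oils, read 67.1, 14.8 and 89.7, 6.06-fold higher. ARAB-1, also a GDSL-type lipase, read 34.6, 59.9 and 131, 2.19-fold higher. Each was highest at 50 ppm, but the control lay between the doses in the first and below both in the second. The lipid droplet proteins of the rubber elongation factor type were apart in both directions: AT1G67360 read 94.4, 108 and 255, 2.36-fold higher, and AT2G47780 read 18.1, 36.4 and 11.2, 3.25-fold lower. FATB, an acyl-ACP thioesterase that releases saturated fatty acids, read 110.3, 68.0 and 168, 2.47-fold higher. AT2G47630 (47.0, 55.3 and 18.6) and AT2G39400 (143, 168 and 80.1), resembling monoacylglycerol lipases, were 2.97-fold and 2.09-fold lower.

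Of 13 kept probe sets that RefSeq names mark as UDP-glycosyltransferases, which attach sugars to small molecules, 1 was 2-fold higher and 0 lower (median -0.04). AT2G36970, of this family but without such a name, read 23.9, 50.3 and 154, 3.07-fold higher, and UGT73B1 read 26.6, 11.9 and 36.1, 3.03-fold higher. PDC2, pyruvate decarboxylase, read 39.3, 53.6 and 124, 2.31-fold higher. SAL2, a phosphatase of the family that removes phosphate from nucleotide by-products of sulfation, read 63.4, 18.6 and 96.2, 5.17-fold higher.

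Of 7 kept probe sets whose names mark histones and chromatin, 1 was 2-fold higher and 0 lower (median 0.13). HIS1-3, a linker histone induced by drought, read 13.5, 45.3 and 145, 3.21-fold higher, in steps from control to 50 ppm. Other nuclear and RNA-binding genes, given as single examples, came from no counted list. AT5G27120, similar to the nucleolar protein NOP56, read 93.0, 25.7 and 81.6, 3.18-fold higher. ATRX, a chromatin remodeller, read 30.8, 21.2 and 56.2, 2.65-fold higher, and AT2G38610, an RNA-binding KH-domain protein, read 157, 93.4 and 235, 2.52-fold higher. AT2G33845, a nucleic acid-binding protein, read 30.2, 7.9 and 43.9, at least 5.49-fold higher. Apart from HIS1-3, these had their lowest leaf level at 25 ppm.

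Probe sets that RefSeq assigns to small nucleolar RNA loci, which guide modification of ribosomal RNA, numbered 7 after the filter. All 7 had a negative difference and 3 were 2-fold lower (median -0.83), or 2 of 6 at 25 or more on both arrays. AT1G03746 read 53.8, 44.8 and 1.3, at least 5.60-fold lower, AT5G44286 read 356, 457 and 101, 4.54-fold lower, and AT4G03295 read 131, 132 and 55.4, 2.38-fold lower. The 50 ppm array was the lowest of the leaf arrays in each of these 3. The other AT5G44286 probe set was under the floor on every leaf and root array, so the AT5G44286 reading rests on the kept probe set alone. The array reads RNA primed from poly(A) tails, so these signals need not be the mature small RNAs.

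The tissue label was checked against photosynthesis transcripts. RCA, which activates the carbon-fixing enzyme Rubisco, read 3013, 4183 and 3363 in leaves and at most 27.6 in roots. All 9 probe sets of photosynthesis genes were kept, and none was 2-fold apart. Their difference was negative in 8 (median -0.31), and this median became 0.01 after quantile normalization of the leaf arrays. Over all 266 kept probe sets with a mean of 1000 or more, the median difference was -0.21. The meristem marker HIS4, histone H4, read 248, 336 and 246. The floral list had 1 named probe set, under the floor on every leaf array, and the root and guard cell lists had none.

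Further genes with large differences have no role given here or none certain. AT1G76960 read 489.6, 311 and 1619.9, 5.21-fold higher, AT2G30930 read 334, 116 and 556, 4.81-fold higher, and AT1G13990 read 128, 41.6 and 177, 4.26-fold higher. AT3G15450, of a family named for aluminium-induced proteins, read 2533, 2173 and 580.2, 3.75-fold lower at 50 ppm. All 3 higher genes had their lowest level at 25 ppm, while AT3G15450 differed mainly at 50 ppm.

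**Figure D4:**
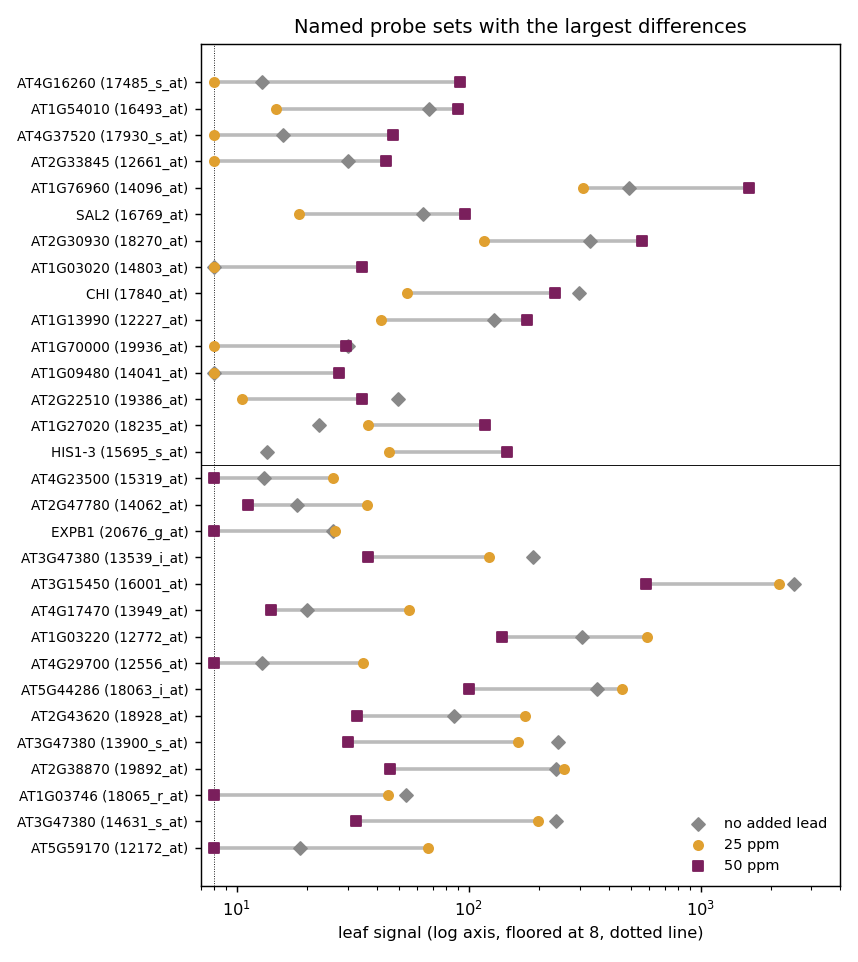
Leaf signal (log x axis, floored at 8) of the 15 named probe sets with the largest differences in each direction, higher at 50 ppm above the line and lower below it; diamonds are control, circles 25 ppm and squares 50 ppm. AT1G76960, AT2G30930 and AT1G13990 have the control diamond between the doses, and CHI and AT2G22510 have it above both.

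Several genes had more than 1 kept probe set, which are separate readings on the same arrays and not replicates of a dose. Of 83 such genes, 56 had the same sign in all their probe sets. In 10 genes at least 1 probe set was 2-fold apart, and in 8 of these the sign was shared. All probe sets were 2-fold apart in 4 genes: AT3G47380, EXPB1 and ATPMEPCRB, lower, and AT4G38540, an FAD-dependent monooxygenase, higher (98.4, 115 and 246 in one, 102, 97.7 and 196 in the other). AT1G60200 was a disagreement, with 25.6, 24.9 and 51.2 in one probe set and 96.5, 119 and 105 in the other.

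Adjacent genes on the chromosomes were also compared. Over all kept probe sets with a single gene name, 7.47% were apart. Of 280 pairs of adjacent genes with both kept, 48 had a member 2-fold apart, and in 3 pairs both were, all 3 lower. They were the aspartyl proteases AT1G03220 and AT1G03230, the RING finger genes AT4G10150 (17.5, 32.2 and 13.6) and AT4G10160 (21.8, 34.4 and 12.4), and the pair AT4G29020 (623, 990.0 and 383) and AT4G29030 (13.1, 33.2 and 13.2). In all 3 pairs 25 ppm was the highest leaf array for both genes, and where such genes are near-identical copies the probes may read both. The number of such pairs was not tested against the share of 7.47%.

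In roots, 15.6% of kept probe sets were at least 2-fold apart between the same doses, 11.5% higher and 4.1% lower. The 50 ppm root array had an average background of 192.65, against 97.80 at 25 ppm and 86.48 in control roots. Its noise (5.90 against 3.52 and 3.06) and median signal (29.3 against 25.4 and 25.6) were also the highest in roots. The part of this in the root differences was not tested. Of the 3646 probe sets kept in both organs, 9.35% were higher in roots at 50 ppm and 2.50% lower. Of the 156 leaf-higher probe sets kept in roots, 26 were higher there (16.7%) and 4 lower (2.56%). Among the 117 leaf-lower probe sets kept in roots, 32 were higher in roots (27.4%) and 5 lower (4.27%). The shared leaf-higher and root-higher set was 13.3% of the leaf list and 4.88% of the root list, and the leaf-lower and root-higher set was 19.4% and 6.00%.

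Opposite directions in the organs occurred for 36 probe sets, of which 15 were named, 14 of them lower in leaves and higher in roots. AT4G01700, the chitinase family member, read 107, 132 and 499.8 in roots, in the same order of doses. AT4G29700, resembling nucleotide pyrophosphatases, read 12.8, 35.1 and 5.8 in leaves and 41.9, 44.4 and 181 in roots. AT1G03230 read 155, 179 and 620.5 in roots, and ATPMEPCRB read 5.8, 6.0 and 28.5 in one probe set. In each, 50 ppm was the highest root array and the lowest leaf array. The reverse was seen in AT2G33845, with 29.3, 88.9 and 36.0 in roots.

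**Figure D5:**
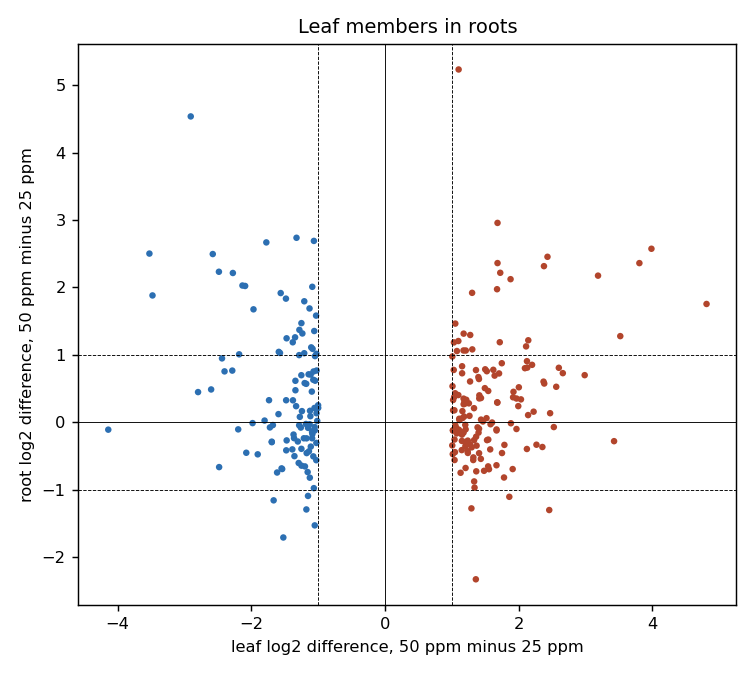
Log2 difference, 50 ppm minus 25 ppm, in leaves (x axis) and roots (y axis) for the 273 leaf probe sets at least 2-fold apart that were also kept in roots; red points were higher and blue lower in leaves, and dashed lines mark 2-fold. Most points lie within 2-fold in roots, with 58 above the upper dashed line.

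The 223 probe sets without a single gene name included all but 2 of the 14 that were at least 8-fold apart. One of them read 8.4, 5.0 and 224.3, at least 28.0-fold higher, and another read 104.2, 86.3 and 1366.6, 15.8-fold higher. On the lower side, one read 271.0, 141.1 and 4.4, at least 17.6-fold, and another 111.6, 92.1 and 3.4, at least 11.5-fold. These 4 stood apart at 50 ppm from both other leaf arrays.

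Control probe sets differed between the leaf arrays. Trimmed means were close to 100 on all 6 arrays, medians were 22.3, 24.3 and 25.0 in leaves, and average backgrounds were 85.3, 69.0 and 75.4. Of 9 spike-in probe sets, which read RNA added in the laboratory, 8 were higher at 25 than at 50 ppm, with a median ratio of 1.90. The GAPDH 3′ control read 914.5, 1555.8 and 530.0, and the ubiquitin 3′ control read 3622.8, 5878.3 and 3521.3. GAPDH 3′ to 5′ ratios, a sign of RNA length, were 1.97, 2.03 and 1.40. The part of these control differences in the results was not tested.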

How the data were processed

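There were 6 samples with 1 array each, and the 3 leaf arrays carry the results. The authors deposited linear intensities, 1 per probe set. The software behind them was not stated in the labels or headers used here. The deposited intensities have trimmed means (2% cut at each end) near 100 on every array, so they appear to have been scaled to 100. All 6 value columns belong to the 6 samples, and 0 columns were left over.

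Signals were floored at 8 and compared as log2 differences in Python 3.11.15 with pandas 2.3.3, numpy 2.4.6 and scipy 1.17.1, and matplotlib 3.10.9 drew the figures. Of 8247 probe sets, 3784 named 1 gene through the platform annotation and RefSeq TAIR10.1, 70 named several and 10 named a gene that did not match; no probe set matching several genes was named. A probe set may read near-identical gene copies. The counting code was checked on simulated signals. Every 2-fold probe set with 1 gene could be named; those given in full were the 30 largest in each direction, genes with all probe sets apart, and for a list at most 6 of its kept members.

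The members and lists were chosen with earlier results of these data known: 13 pathway and 4 marker lists, and 12 gene families added after the values were seen. Of 326 pathway loci, 28 had a kept probe set. Alternatives changed the scaling, floor, filter and fold. The planned search of promoter motifs was not run, since promoter sequences were not used here. The number of arrays limits the precision.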

Additional observations from a re-analysis of the deposited data

Results flagged for a closer look

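Named probe sets at least 2-fold apart in opposite directions in leaves and roots were picked out, since the difference between the 50 and 25 ppm arrays had opposite signs in the organs; whether the organs differ was not tested. The values are the leaf log2 difference (50 minus 25 ppm) minus the root log2 difference. Lower in leaves and higher in roots were the snoRNA loci AT1G03746 (-4.717) and AT5G44286 (-3.189), the pyrophosphatase-like AT4G29700 (-4.161), the chitinase family member AT4G01700 (-3.476), the aspartyl protease AT1G03230 (-3.002) and the peroxidase AT1G68850 (-2.214). The lipase-like AT2G39400 (-3.754) and AT2G47630 (-2.599), the pectin methylesterase ATPMEPCRB in both probe sets (-3.316 and -2.604) and the endoglucanase family member GH9B8 (-2.232) did the same. So did the receptor-like kinase AT1G61360 (-2.717), the dehydrin LTI30 (-2.633) and the methyltransferase-like AT1G55450 (-2.172). AT2G33845 was higher in leaves and lower in roots (3.76). The value for AT5G44286 is from its kept probe set only. The 50 ppm root array had the highest average background of the 6 arrays (192.65), and its part in these differences was not tested.

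Spike-in controls, which no comparison used, were brighter on the 25 ppm leaf array than on the control leaf array, with a median ratio of 1.706 over 9 probe sets. The same ratio was 0.916 for the 50 ppm leaf array. The part of this in the leaf differences was not tested.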

How the results depend on the processing

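No paired analysis was possible because each group holds 1 array, and for the same reason no array could be left out. Rescaling to a common trimmed mean gave 361 probe sets apart (191 higher, 170 lower), quantile normalization 356 (174 and 182), centring on well measured probe sets 368 (206 and 162), a floor of 4 gave 360 and a floor of 16 gave 316. The share of higher calls was 54.2% as reported, 48.9% after quantile normalization and 56.0% after centring. An offset of 16 in place of the floor gave 199 (113 higher, 86 lower), with the control nearer 25 ppm for 122 and nearer 50 ppm for 77, and 1 gene with all its probe sets apart one way in place of 4. A signal of at least 25 on both arrays gave 200 (112 and 88), with 128 and 72 by the control and 2 such genes. A minimum of 50 on 1 or both gave 250 (142 and 108), with 91 nearer 50 ppm and 2 genes. A minimum of 100 gave 160 (88 and 72), with 105 and 55 and 2 genes. No filter gave 499, with 218 nearer 50 ppm. A fold of 1.5 gave 1073 (609 and 464), with 623 and 450 and 11 genes, and a fold of 3 gave 125 (74 and 51), with 76 and 49 and 1 gene. No named gene that still had a value changed sign under these, but of 137 named probe sets 70 dropped under 2-fold with the offset, 14 with the floor of 16 and 7 after quantile normalization. Where a stricter setting gave fewer probe sets, its construction leaves fewer to count. The cause of other shifts was not tested. Low signal limits the dimmest genes, whose fold depends on the floor.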
